A study of Macaca mulatta with 38 samples.

Results

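Ion channel genes were followed through the differentiation of neural stem cells grown from the fetal cortex of the rhesus macaque. They comprise the voltage-gated sodium channels, the voltage-gated calcium channels, all families of potassium channels, the HCN pacemaker channels and the accessory subunits of each. The genes were taken by symbol alone: those that start with KCN, SCN or CACN and go on with family letters and numbers, and the HCN genes. The symbols matched 135 of the 34619 genes measured, and 115 of them had enough reads to be tested, among 20794 genes tested in all. The 20 channel genes not tested reached at most 27 reads in any library. SCN2A and KCNE2 were not analysed here.

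The cells came from wild-type fetuses at embryonic day 77 (E77), from Frontal and Occipital cortex, and at embryonic day 42 (E42), from Anterior and Posterior cortex, which makes 4 culture series. All cultures were kept at 5% oxygen, first in N2 medium with FGF2 added each day, and after day 5 without FGF2, in NeuroBasal medium with B27, BDNF and NT-3. Polyadenylated RNA was sequenced once per series and day, from 2 wells per condition, in 38 libraries. Days 1, 3 and 5 are called the stem phase here (12 libraries), days 6, 7 and 8 the transition (12 libraries), and days 11, 14 and 17, with day 20 at E77, the terminal phase (14 libraries). Libraries of 1 phase are different days of a series, so p-values of the phase comparisons rest on the spread between days. Age and region fits, and that of the age difference of a change, hold the day as a block. Their p-values rest on the spread left between series within days. Either spread may be in part technical. Day 20 was sampled at E77 alone, so under that block age differences in terminal libraries rest on days 11, 14 and 17. RPKM ranges of E77 terminal libraries include day 20. How many fetuses or culture runs each series came from is not given in the sources used here, so age or region and any difference between fetuses, dissections or culture runs cannot be told apart.

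Voltage-gated sodium channels carry the rising phase of the action potential. Voltage-gated calcium channels admit the calcium that releases transmitter and alters gene expression. Potassium channels repolarise the membrane and hold its resting potential, which inward rectifiers such as KCNJ10 keep strongly negative in astrocytes and radial glia while they clear potassium from around neurons.

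Total counts were between 20149635 and 56363300 reads per library. Markers of neurons and astrocytes were present in every series, and those of microglia, blood and choroid plexus were near 0, with summed levels of at most 0.958, 0.0793 and 1.91 RPKM (reads scaled to gene length and library size). The E42 Anterior libraries stood apart in the 7 mesenchymal markers (collagens and others), which summed to 2886 to 7150 RPKM there, 12.57 to 72.64 RPKM in E42 Posterior, 11.99 to 37.15 RPKM in E77 Frontal and 9.02 to 19.36 RPKM in E77 Occipital libraries. Results that changed without that series are given with and without it.

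Levels among the channel genes were very uneven. On the RPKM scale, which allows for gene length, SCN4B, an accessory beta subunit of sodium channels, had the highest mean over the 38 libraries, 71.9 RPKM, or 16% of the summed mean of all channel genes. KCNJ10 followed with 36.1 RPKM and 8.03% of the sum. After them came KCND3, the pore subunit of a rapidly inactivating A-type potassium current, with 25.5 RPKM, and the calcium channel auxiliary subunits CACNG7 with 22.3 RPKM and CACNB3 with 21.6 RPKM. CACNG4, KCNG1 and KCNH7 stood between 14.5 and 12.6 RPKM, and the first 8 genes made up 48.3% of the sum. In all, 74 channel genes averaged at least 1 RPKM, 22 reached 1 RPKM in every library and 37 stayed under 1 RPKM in every library. The number of channel genes at 1 RPKM or more averaged 52.3 per library in the stem phase (46 to 61), 65.3 in the transition (58 to 74) and 74.4 in the terminal phase (67 to 80).

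**Figure D1:**
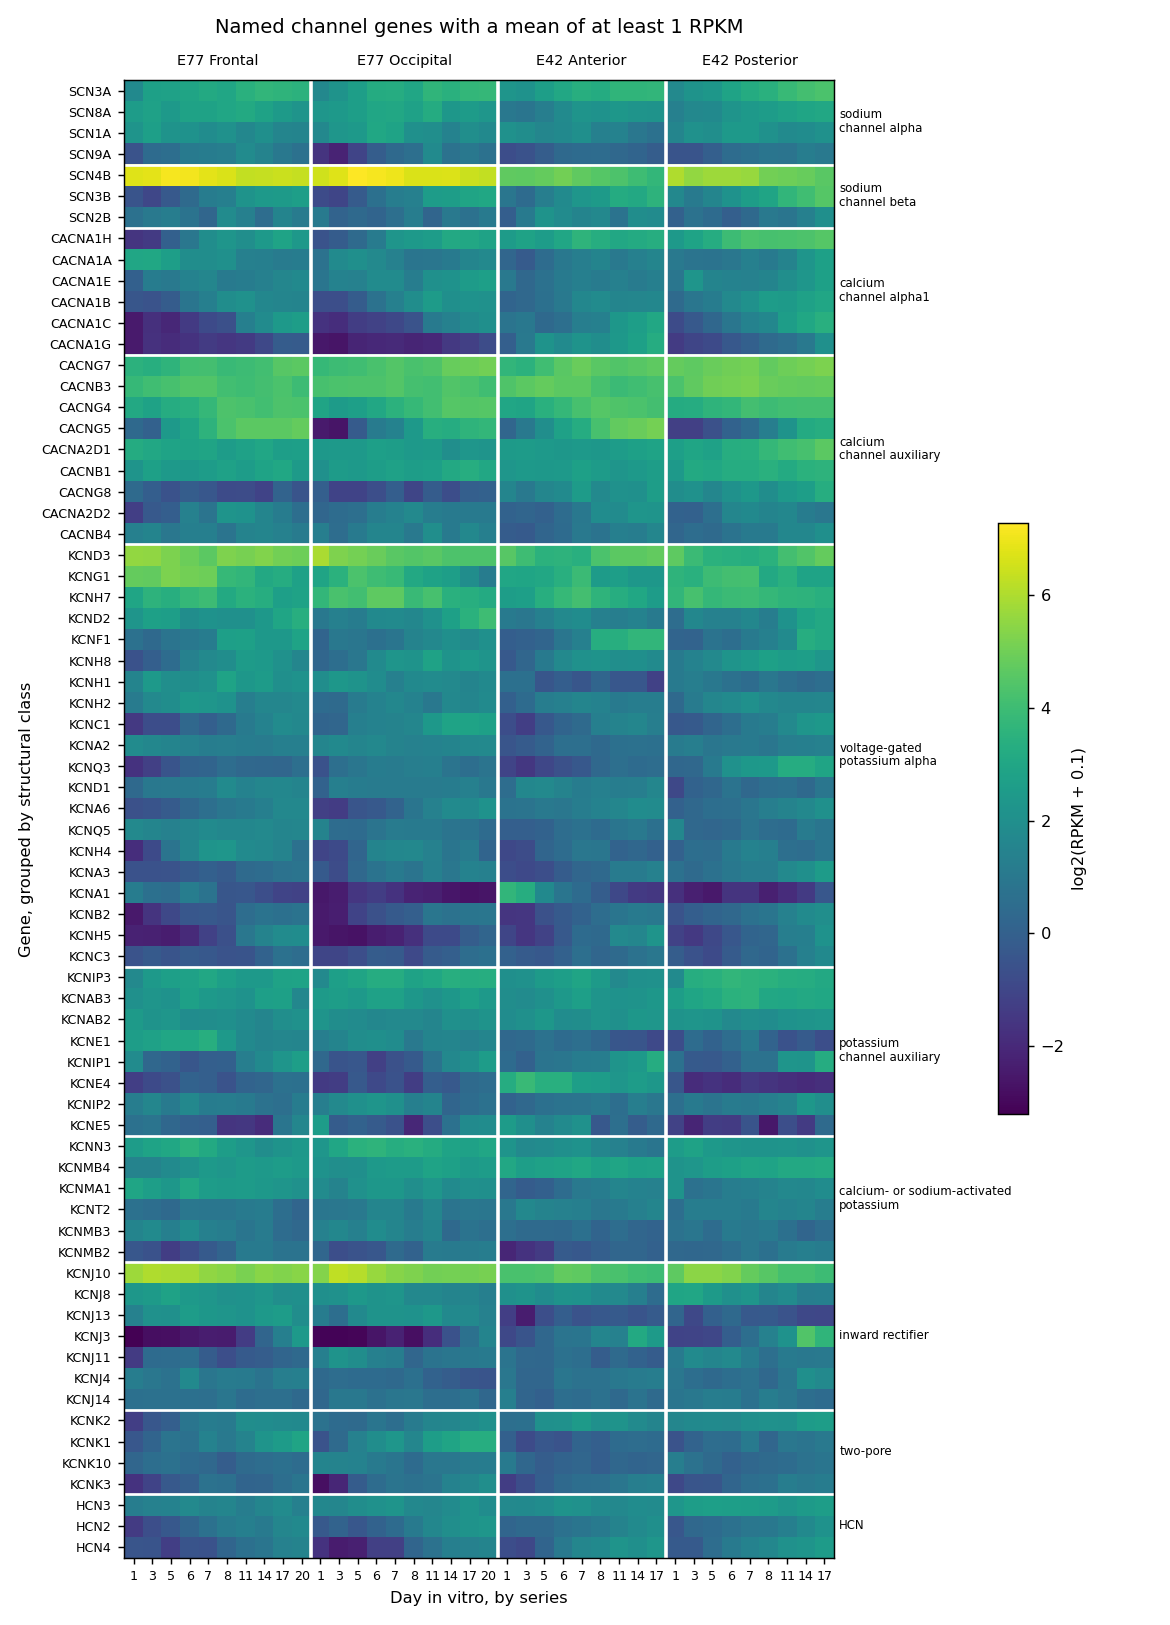
Levels of 70 channel genes that averaged at least 1 RPKM, as log2(RPKM + 0.1), in the 38 libraries ordered by series and day in vitro; rows are genes. SCN4B and KCNJ10 are high in every library, and SCN3B and CACNA1C are higher in the terminal than in the stem days of each series.

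Most channel genes were higher in the terminal phase than in the stem phase. Averaged over the 4 series, 67 of the 115 tested channel genes rose (58.3%, where 31.9% of all tested genes rose) and 18 fell (15.7%, where 30.4% of all tested genes fell). The median log2 fold change was 0.72 over the channel genes and 0 over all tested genes. Without E42 Anterior, 65 rose and 16 fell. In bulk samples, more cells of a type and more RNA per cell cannot be told apart, and the same holds for every change below. Of 8 neuron markers, 7 rose and none fell, and of 5 markers of dividing cells all 5 fell, both in the terminal against the stem phase. Their part in the channel changes was not tested.

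The rise was present in each series. In E77 Frontal cultures 50 channel genes rose and 20 fell (22.5% and 20.7% of all tested genes), and in E77 Occipital cultures 52 rose and 14 fell (21.6% and 19.6%). In E42 Anterior cultures 51 rose and 15 fell (17.9% and 16.2%), and in E42 Posterior cultures 65 rose and 6 fell (21.5% and 17.8%). In each of the 4 series 31 channel genes rose, 27% of those tested, where 7.61% of all tested genes did. They include the sodium channel genes SCN3A and SCN3B, the calcium channel genes CACNA1B, CACNA1C and CACNA1G, the delayed rectifier KCNC1, and HCN2 and HCN4. In each series 2 channel genes fell, KCNJ16 and KCNK5, which is 1.74% of those tested, where 5.36% of all tested genes did.

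**Figure D2:**
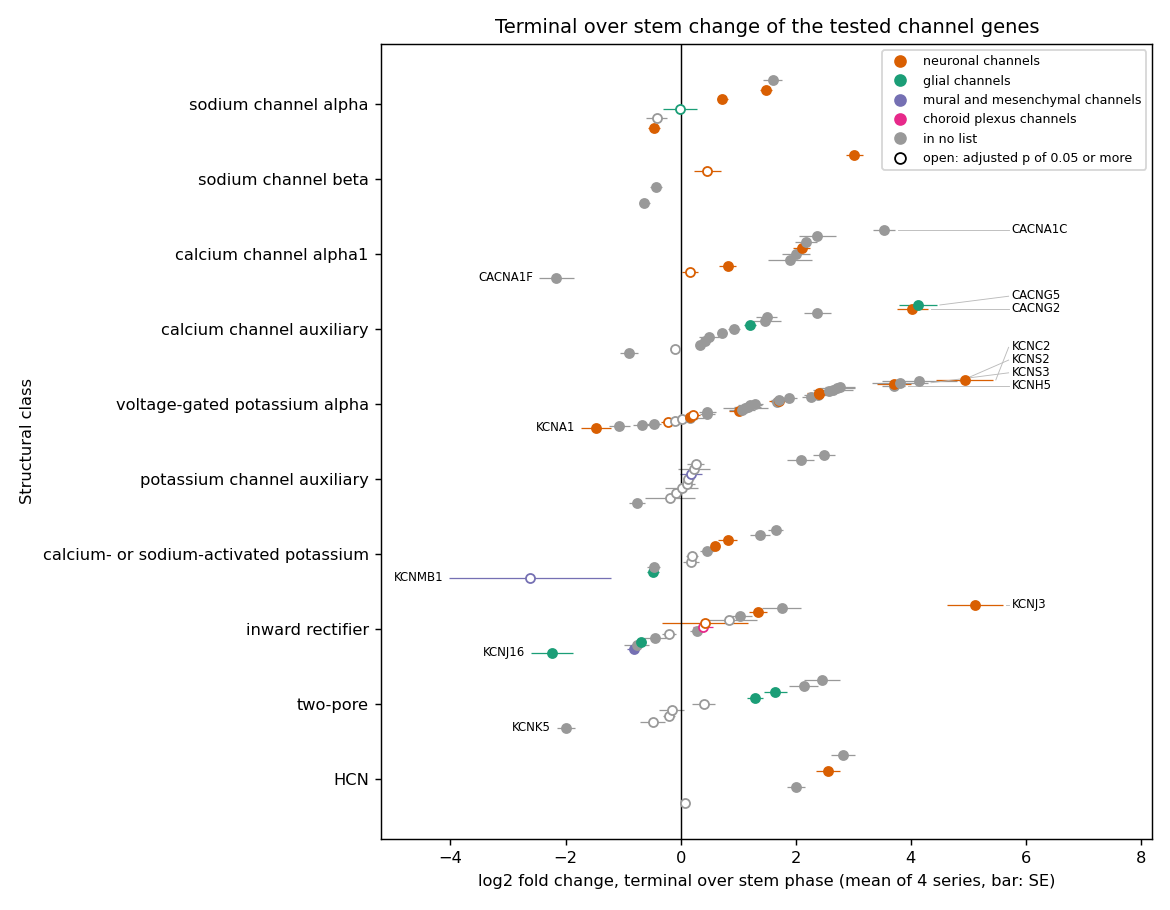
Log2 fold change of terminal over stem phase, mean of the 4 series, for the 115 tested channel genes by structural class, with bars of 1 SE, colours by list and open points for genes with an adjusted p of 0.05 or more. Most points of the calcium alpha1, voltage-gated potassium alpha and HCN classes lie above 0, and the inward rectifiers lie on both sides.

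The sodium channel pore genes did not move together: of 6 tested, 3 rose and 1 fell (31.9% and 30.4% of all tested genes). SCN3A, the pore subunit that predominates in the fetal brain, had 10.7, 12.6 and 19.7 RPKM in terminal libraries (lowest, median and highest of 14), against 3.09, 4.56 and 6.72 RPKM in the 12 stem libraries. All terminal libraries were above all stem libraries, and the log2 fold change was 1.48 ± 0.11 (SE; edgeR adjusted p = 4.78e-13). SCN8A, the pore subunit of adult nodes and axon initial segments, had 4.36, 5.59 and 9.34 RPKM in terminal libraries, against 1.73, 4.03 and 6.75 RPKM in stem libraries. These ranges overlapped, and the mean log2 fold change was 0.72 ± 0.09 (edgeR adjusted p = 4.21e-08). SCN9A, a pore subunit known from sensory neurons, rose by 1.60 ± 0.16 on the log2 scale (edgeR adjusted p = 7.23e-10), at a terminal median of 1.76 RPKM. SCN1A, a pore subunit of mature inhibitory neurons, was the one that fell, with 1.52, 3.16 and 4.12 RPKM in terminal libraries against 2.81, 4.15 and 6.34 RPKM in stem libraries (log2 fold change -0.46 ± 0.11, edgeR adjusted p = 0.000495).

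Among the sodium channel beta subunits, which set gating and adhesion, SCN3B and SCN4B moved apart. SCN3B had 4.42, 7.72 and 22.5 RPKM in terminal libraries, against 0.392, 1.02 and 3.12 RPKM in stem libraries. Its groups did not overlap, and its log2 fold change was 3.02 ± 0.15 (edgeR adjusted p = 9.87e-16). SCN4B had 13.2, 78.9 and 105 RPKM in terminal libraries, against 25.5, 77.8 and 155 RPKM in stem libraries. The wide overlap comes with a difference between ages given further on: within series the log2 fold change was -0.49 in E77 Frontal, -0.29 in E77 Occipital (edgeR adjusted p = 0.204), -0.76 in E42 Anterior and -0.99 in E42 Posterior, with a mean of -0.63 ± 0.09 (edgeR adjusted p = 6.95e-07). SCN2B did not pass the test (edgeR adjusted p = 0.0785).

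Of the 9 tested calcium channel pore genes, 7 rose and 1 fell (31.9% and 30.4% of all tested genes), with a median log2 fold change of 2.00. CACNA1C, a pore subunit of L-type channels that couple depolarisation to transcription, had 2.08, 5.06 and 10.5 RPKM in terminal libraries, against 0.0803, 0.385 and 1.85 RPKM in stem libraries. Every terminal library was above every stem library, and the log2 fold change was 3.54 ± 0.20 (edgeR adjusted p = 1.2e-14), an 11.6-fold difference. CACNA1B, of the N-type channels that trigger transmitter release, had 2.74, 4.08 and 7.81 RPKM in terminal libraries, against 0.51, 0.901 and 2.15 RPKM in stem libraries, again without overlap (2.10 ± 0.15, edgeR adjusted p = 4.41e-13). CACNA1H, of the low-voltage T-type channels, had 3.86, 8.37 and 22.4 RPKM in terminal libraries, against 0.232, 3.31 and 9.67 RPKM in stem libraries. These ranges overlapped, with a log2 fold change of 2.17 ± 0.19 (edgeR adjusted p = 4.51e-11). CACNA1G, another T-type gene, rose by 2.00 ± 0.25 (edgeR adjusted p = 3.73e-08).

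CACNA1A, of the P/Q-type channels at mature synapses, moved in different directions in different series, and its mean did not pass the test (0.17 ± 0.14, edgeR adjusted p = 0.291). In E77 Frontal cultures CACNA1A fell, with 2.47, 2.38, 2.14 and 2.20 RPKM at days 11, 14, 17 and 20, against 7.91, 8.13 and 6.28 RPKM at days 1, 3 and 5 (log2 fold change -1.62 ± 0.26, edgeR adjusted p = 1.05e-05). In E42 Posterior cultures CACNA1A rose, with 2.69, 4.65 and 6.60 RPKM at days 11, 14 and 17, against 1.95, 1.69 and 1.64 RPKM at days 1, 3 and 5 (1.40 ± 0.28, edgeR adjusted p = 0.000254). Neither pair of ranges overlapped. CACNA1A also rose in E42 Anterior cultures (1.12 ± 0.28, edgeR adjusted p = 0.00286) and did not pass in E77 Occipital cultures (-0.23, edgeR adjusted p = 0.516). CACNA1F, known as the retinal L-type gene, was the pore gene that fell (-2.16 ± 0.31, edgeR adjusted p = 4.08e-07), at medians of 0.036 RPKM in terminal and 0.109 RPKM in stem libraries.

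Of 13 tested calcium channel auxiliary genes, 11 rose and 1 fell (31.9% and 30.4% of all tested genes). CACNG2, CACNG4, CACNG5, CACNG7 and CACNG8 encode transmembrane proteins that also traffic AMPA receptors. CACNG5 had 4.39, 18.8 and 34.2 RPKM in terminal libraries, against 0.0639, 0.852 and 5.45 RPKM in stem libraries (log2 fold change 4.12 ± 0.33, edgeR adjusted p = 1.22e-11). The ranges overlapped across series and not within any of them. CACNG2 had 0.331, 1.75 and 3.16 RPKM in terminal libraries, against 0.016, 0.124 and 0.348 RPKM in stem libraries (4.03 ± 0.27, edgeR adjusted p = 1.3e-13). CACNG4 had 16.9, 19.5 and 22.8 RPKM in terminal libraries, against 5.78, 8.23 and 12 RPKM in stem libraries, with no overlap (1.21 ± 0.11, edgeR adjusted p = 4.29e-11). CACNG8 passed on the mean (0.49 ± 0.17, edgeR adjusted p = 0.0131) but not without E42 Anterior (0.38, edgeR adjusted p = 0.0995), and its annotated span overlaps NDUFA3. CACNB3, the most abundant beta subunit, did not pass (-0.10 ± 0.07, edgeR adjusted p = 0.257).

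Voltage-gated potassium pore genes were the largest class, with 35 tested, of which 26 rose and 4 fell (31.9% and 30.4% of all tested genes). KCNQ3, a pore subunit of the M-current that restrains repetitive firing, had 1.1, 1.43 and 9.6 RPKM in terminal libraries, against 0.213, 0.592 and 1.98 RPKM in stem libraries (log2 fold change 1.70 ± 0.16, edgeR adjusted p = 1.94e-10). The KCNQ3 ranges overlapped, and its high terminal values were all from E42 Posterior.

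KCNH5, of the ether-a-go-go family, separated fully, with 0.449, 2.54 and 4.54 RPKM in terminal libraries against 0.0531, 0.177 and 0.415 RPKM in stem libraries (3.71 ± 0.20, edgeR adjusted p = 5.67e-15). KCNC1 and KCNC2 encode fast delayed rectifiers of fast-spiking neurons. KCNC1 rose by 2.41 ± 0.16 on the log2 scale (edgeR adjusted p = 1.57e-13) at a terminal median of 3.37 RPKM. KCNC2 rose by 4.93 ± 0.49 (edgeR adjusted p = 6.44e-10) but was low throughout, with 0.0186, 0.596 and 1.9 RPKM in terminal libraries against 0, 0.0276 and 0.122 RPKM in stem libraries. KCNS3, a silent subunit of voltage-gated potassium channels, rose by 3.81 ± 0.49 (edgeR adjusted p = 6.02e-08). That mean rests on the E77 series (4.20 ± 0.86 in Frontal and 8.18 ± 1.14 in Occipital). E77 stem libraries held 1 to 6 KCNS3 reads in Frontal and 0 to 1 in Occipital, so those sizes are uncertain. KCNS3 passed in neither E42 Anterior (0.80, edgeR adjusted p = 0.408) nor E42 Posterior (2.09 ± 1.01, edgeR adjusted p = 0.104).

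Some abundant voltage-gated potassium genes did not follow the class. KCND3 had 17.4, 24.6 and 39 RPKM in terminal libraries, against 11, 29.4 and 61.7 RPKM in stem libraries, and its mean did not pass (-0.11 ± 0.12, edgeR adjusted p = 0.459). The ages moved apart: KCND3 averaged 27.8 RPKM in terminal and 43.9 RPKM in stem libraries of E77, but 23.6 and 17 RPKM at E42. KCNH7, a neuronal member of the erg family, had 5.97, 10.1 and 18.7 RPKM in terminal libraries, against 6, 12.3 and 19.2 RPKM in stem libraries, and did not pass either (-0.22 ± 0.13, edgeR adjusted p = 0.128). KCNG1, a silent subunit, had 2.2, 6.89 and 13 RPKM in terminal libraries, against 7.41, 11.6 and 36.5 RPKM in stem libraries, and fell by 1.06 ± 0.19 on the log2 scale (edgeR adjusted p = 1.39e-05). Its ranges overlapped across series, and KCNG1 passed in the 2 E77 series (-1.61 in Frontal and -1.38 in Occipital) but not in E42 Anterior (edgeR adjusted p = 0.22) or E42 Posterior (edgeR adjusted p = 0.2). KCNA1 also fell (-1.47 ± 0.26, edgeR adjusted p = 1.55e-05), but not without E42 Anterior (-0.35, edgeR adjusted p = 0.336): within series it fell in E42 Anterior (-4.84 ± 0.55) and E77 Frontal (-1.74 ± 0.45) and rose in E42 Posterior (1.56 ± 0.55, edgeR adjusted p = 0.0242).

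**Figure D3:**
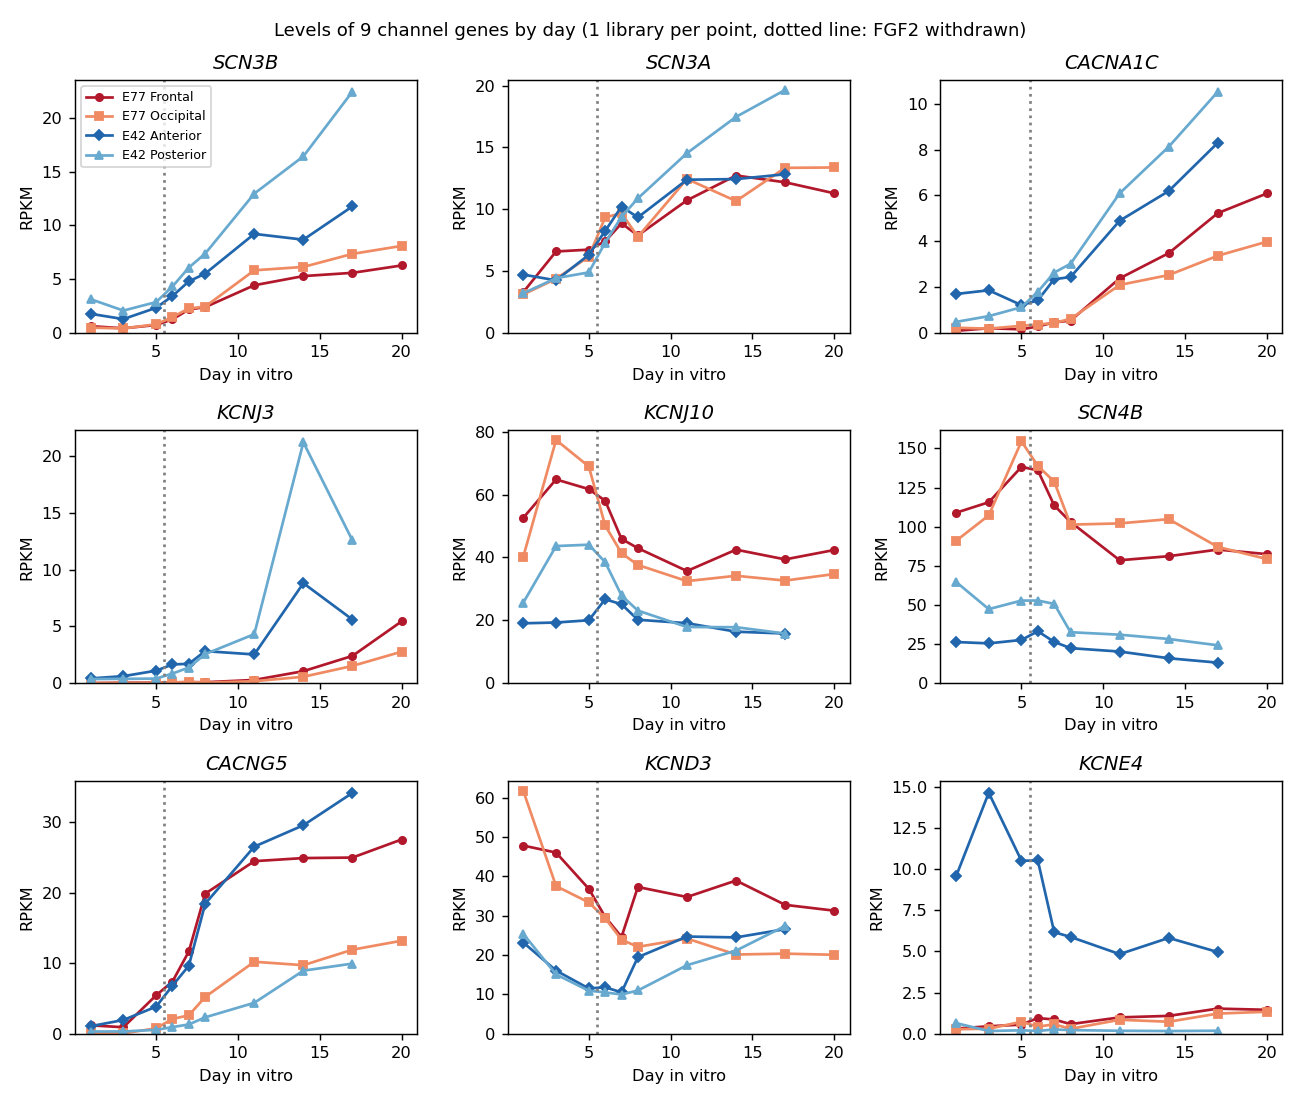
RPKM of 9 channel genes by day in vitro, 1 line per culture series, with the withdrawal of FGF2 after day 5. SCN3B, SCN3A and CACNA1C are higher from day 11 than on days 1 to 5 in all 4 series, KCNJ10 and SCN4B are higher at E77 than at E42 on every shared day, and KCNE4 is high in E42 Anterior.

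HCN channels carry an inward current that opens on hyperpolarisation and paces firing. HCN4 had 1.5, 2.73 and 5.65 RPKM in terminal libraries, against 0.0868, 0.561 and 1.35 RPKM in stem libraries (2.82 ± 0.21, edgeR adjusted p = 1.46e-12). HCN2 had 2.07, 3.3 and 4.87 RPKM in terminal libraries, against 0.28, 0.851 and 1.26 RPKM in stem libraries (2.00 ± 0.16, edgeR adjusted p = 2.56e-12). Neither gene's groups overlapped. HCN3 did not pass (0.08, edgeR adjusted p = 0.35).

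Of 14 tested inward rectifier genes 5 rose and 5 fell in the terminal against the stem phase, shares near those of all tested genes (31.9% and 30.4%). KCNJ3, a pore subunit of the G-protein-gated channels through which transmitters inhibit neurons, had 0.179, 2.66 and 21.2 RPKM in terminal libraries, against 0.0078, 0.206 and 1.1 RPKM in stem libraries. The ranges overlapped across series and not within any of them, and the log2 fold change, 5.12 ± 0.49, was the largest among the channel genes named by size (edgeR adjusted p = 3.58e-10). KCNJ3 had only 1 to 6 reads in each stem library of E77, which leaves the size of that change uncertain. Of its partners, KCNJ9 rose by 1.35 ± 0.16 (edgeR adjusted p = 1.27e-08), while KCNJ6 was close to 0, with a highest value of 0.302 RPKM in terminal and 0.0771 RPKM in stem libraries, and did not pass (edgeR adjusted p = 0.646). KCNJ10 moved the other way, with 15.8, 32.6 and 42.5 RPKM in terminal libraries against 19.1, 43.8 and 77.4 RPKM in stem libraries (-0.69 ± 0.09, edgeR adjusted p = 2.09e-07). Its span overlaps KCNJ9 in the RefSeq annotation, and how reads shared by the pair were counted is not given in the sources used here. KCNJ16, which joins KCNJ10 in glial channels, was below 0.3 RPKM in every stem and terminal library (highest 0.101 RPKM in terminal and 0.258 RPKM in stem libraries) and fell by 2.24 ± 0.37 (edgeR adjusted p = 4.22e-06). KCNJ8, the pore subunit of the ATP-sensitive channels of pericytes and smooth muscle, fell by 0.82 ± 0.11 (edgeR adjusted p = 1.32e-07), with 1.3, 2.97 and 4.88 RPKM in terminal libraries against 3.63, 4.97 and 7.94 RPKM in stem libraries.

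Background potassium channels of the K2P family were tested in 9 genes, of which 4 rose and 1 fell (31.9% and 30.4% of all tested genes). KCNK3, an acid-sensitive member, had 1.01, 2.04 and 3.79 RPKM in terminal libraries, against 0.0453, 0.463 and 0.852 RPKM in stem libraries, without overlap (2.14 ± 0.25, edgeR adjusted p = 1.26e-08). KCNK1 and KCNK2, both described in astrocytes, rose by 1.64 ± 0.20 (edgeR adjusted p = 2.85e-08) and 1.29 ± 0.14 (edgeR adjusted p = 4.54e-09). KCNK5 was the gene that fell, with 0.0858, 0.145 and 0.51 RPKM in terminal libraries against 0.36, 0.641 and 1.35 RPKM in stem libraries, and it fell by 2.00 ± 0.16 on the log2 scale (edgeR adjusted p = 3.34e-12). Of 10 tested calcium- or sodium-activated potassium genes and their subunits 5 rose and 2 fell. Of 11 potassium channel auxiliary genes 2 rose and 1 fell. The shares over all tested genes were the same 31.9% and 30.4%. KCNMB4, the neuronal subunit of the large-conductance calcium-activated channel, rose by 0.59 ± 0.07 (edgeR adjusted p = 4.02e-09). Its pore gene KCNMA1 rose by 0.45 ± 0.12 (edgeR adjusted p = 0.0016), but by 0.11 without E42 Anterior, where it did not pass (edgeR adjusted p = 0.502). Among the auxiliary genes, KCNIP1, a cytoplasmic partner of A-type channels, had 1.63, 4.62 and 9.63 RPKM in terminal libraries, against 0.602, 1.05 and 3.54 RPKM in stem libraries (2.09 ± 0.24, edgeR adjusted p = 7.42e-09). KCNE1, a single-span subunit best known from the heart, fell by 0.76 ± 0.14 on the mean (edgeR adjusted p = 1.97e-05). Its terminal and stem means were close in E77 Occipital, at 2.74 and 2.92 RPKM. They were 2.96 and 6.95 RPKM in E77 Frontal, and 0.596 and 1.12 RPKM at E42.

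Channels known from neurons and channels known from glia were compared by list. The neuronal list had 25 tested genes and the glial list 8. In the terminal against the stem phase 18 neuronal genes rose and 2 fell, with a median log2 fold change of 1.02, while 4 glial genes rose and 3 fell (median 0.60). Of all tested genes 31.9% rose and 30.4% fell, and the share of glial genes that fell was near that. Without E42 Anterior these counts were 17 and 1 for the neuronal and 4 and 3 for the glial list. On the mean of the 4 series, the glial genes that rose were CACNG4, CACNG5, KCNK1 and KCNK2, and those that fell were KCNJ10, KCNJ16 and KCNN3. SCN7A, a sodium channel relative that senses salt in glia, did not pass on the mean (-0.01, edgeR adjusted p = 0.976), and its series differed. SCN7A averaged 0.175 RPKM in terminal and 0.362 RPKM in stem libraries of E77 Frontal, but 0.202 and 0.0707 RPKM in E77 Occipital. In E42 Anterior stem libraries it averaged 2.83 RPKM, and no E42 terminal library exceeded 1.07 RPKM. KCNN3, a small-conductance calcium-activated channel gene, had 1.74, 4.59 and 9.42 RPKM in terminal libraries, against 3.24, 5.86 and 11.1 RPKM in stem libraries (-0.47 ± 0.10, edgeR adjusted p = 0.000235). Its terminal and stem means were close in E77 Occipital, at 7.82 and 7.92 RPKM. They were 4.5 and 7.05 RPKM in E77 Frontal, and 3.28 and 4.9 RPKM at E42.

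Summed over its genes, the neuronal list came to 123 ± 26.4 RPKM in terminal libraries (SD, n = 14, range 95.51 to 186.5) and 57.4 ± 6.46 RPKM in stem libraries (SD, n = 12, range 45.88 to 64.5). The 2 ranges did not overlap. The glial list came to 80 ± 17 RPKM in terminal libraries (range 49.9 to 105.8) and 64.8 ± 20.9 RPKM in stem libraries (range 35.47 to 93.67), with wide overlap. The sum of the neuronal list divided by that of the glial list was 0.995 at day 20 and 0.735 at day 1 in E77 Frontal, and 1.38 at day 20 and 0.831 at day 1 in E77 Occipital. In E42 Anterior it was 1.59 at day 17 and 1.56 at day 1, with its lowest value, 1.28, at day 5. In E42 Posterior it was 3.30 at day 17 and 1.11 at day 1. The ratio changed most in E42 Posterior, where the glial sum was 56.54 RPKM at day 17. It hardly changed in E42 Anterior, where the glial sum was 74.14 RPKM at day 17 and 35.47 RPKM at day 1. The rise of that sum lay largely in CACNG5 and CACNG4, whose proteins also traffic AMPA receptors. In E42 Anterior CACNG5 averaged 30.1 RPKM in terminal and 2.29 RPKM in stem libraries, and CACNG4 19.5 and 8.66 RPKM. KCNJ10 averaged 17.1 and 19.5 RPKM there, and 28.3 and 44.8 RPKM over all series.

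**Figure D4:**
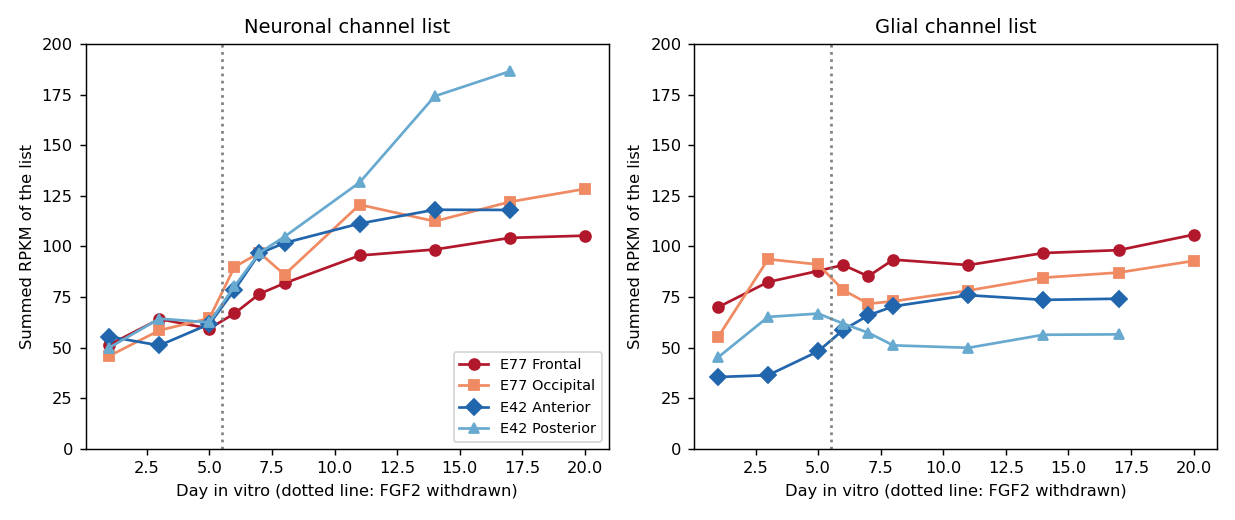
Summed RPKM of the neuronal channel list and of the glial channel list by day in vitro, 1 line per culture series. The neuronal sums lie between 45.88 and 64.5 RPKM on days 1 to 5 and between 95.51 and 186.5 RPKM from day 11, and the glial sums overlap between phases.

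Genes that act with these channels were read from lists of their own. All 13 tested partners of neuronal channels rose in the terminal against the stem phase (31.9% of all tested genes did), with a median log2 fold change of 2.19. NFASC, the adhesion protein of the axon initial segment, rose by 3.54 ± 0.20, and ANK3, the scaffold that holds sodium and KCNQ channels there, by 1.07 ± 0.11. SLC12A5, the chloride exporter of mature neurons, rose by 2.65 ± 0.23. Of 8 glial genes for potassium and water handling 3 rose and 2 fell (31.9% and 30.4% of all tested genes). The water channel AQP4 rose by 3.39 ± 0.35 and the gap junction genes GJB6 and GJA1 by 1.54 and 0.81, while the cotransporter SLC12A2 fell by 1.15. AQP4 and KCNJ10, which share astrocyte endfeet, changed in opposite directions.

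The change from stem to terminal phase was also read in 2 parts, stem to transition and transition to terminal. In the transition against the stem phase 54 channel genes rose and 9 fell (21.6% and 20.0% of all tested genes), and in the terminal phase against the transition 55 rose and 18 fell (22.7% and 19.2%). The 2 comparisons share the transition libraries, so their values are given side by side. On the log2 scale CACNA1H rose by 1.71 in the transition against the stem phase and by 0.46 in the terminal phase against the transition, while SCN3B had 1.49 and 1.53. CACNA1C had 1.12 and 2.42, KCNH5 had 1.43 and 2.27, KCNJ3 had 1.73 and 3.39, and KCNC2 did not pass in the transition (1.28, edgeR adjusted p = 0.236) and then rose by 3.66 ± 0.45 (edgeR adjusted p = 2.31e-07).

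KCND3 and KCNH7, whose means did not pass between the terminal and the stem phase, did pass at the transition. KCND3 had 9.99, 20.8 and 37.3 RPKM in transition libraries, and fell by 0.62 ± 0.13 on the log2 scale against the stem phase (edgeR adjusted p = 0.000195). It then rose by 0.52 ± 0.12 in the terminal phase against the transition (edgeR adjusted p = 0.00101). KCND3 was lowest at day 7 in both E42 series (10.5 RPKM in Anterior and 9.99 RPKM in Posterior) and reached 26.6 and 27.4 RPKM there at day 17. KCNH7 had 8.92, 14.8 and 25.4 RPKM in transition libraries and did the opposite, rising by 0.38 ± 0.13 (edgeR adjusted p = 0.0189) and then falling by 0.60 ± 0.13 (edgeR adjusted p = 0.000298). KCNG1 did not pass in the transition (0.05, edgeR adjusted p = 0.868) and fell by 1.11 ± 0.19 in the terminal phase against it (edgeR adjusted p = 2.26e-05). Falls of SCN1A (-0.53 ± 0.11), SCN4B (-0.54 ± 0.09), KCNE1 (-0.95 ± 0.14) and KCNN3 (-0.52 ± 0.10) were likewise called in the terminal phase against the transition, and none of these genes passed in the transition against the stem phase.

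Between ages, more channel genes were lower at E77 than higher. In the stem phase 24 were higher and 48 lower at E77 than at E42 (28.8% and 31.4% of all tested genes), with a median log2 fold change of -0.36 against -0.03 over all tested genes. In the terminal phase 21 were higher and 54 lower (20.6% and 24.4% of all tested genes), with medians of -0.39 and -0.02. With E77 Occipital and E42 Posterior alone, which leaves out the series with mesenchymal markers, 20 were higher and 43 lower in the stem phase and 14 higher and 53 lower in the terminal phase. On the neuronal list 5 genes were higher and 12 lower at E77 in the stem phase, and 3 and 12 in the terminal phase. On the glial list 3 were higher and 3 lower in the stem phase, and 4 and 1 in the terminal phase. Of 8 neuron markers none was higher and 6 were lower at E77 in each phase, and of 8 astrocyte markers 7 were higher in the stem and 6 in the terminal phase, with none lower. Their part in the channel differences was not tested.

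**Figure D5:**
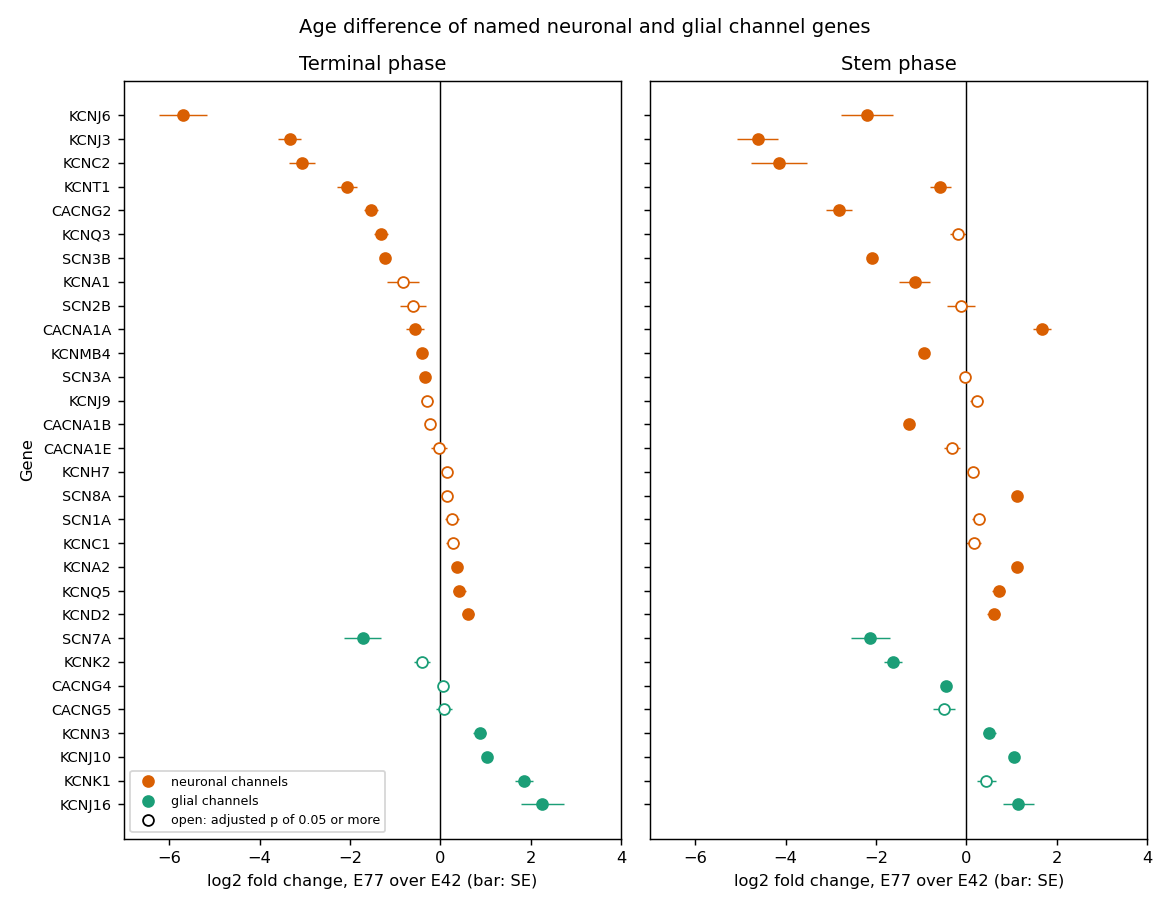
Log2 fold change of E77 over E42 for 30 tested neuronal and glial channel genes, terminal phase on the left and stem phase on the right, with bars of 1 SE. KCNJ10 and KCNN3 lie above 0 in both phases, and KCNJ3 and CACNG2 lie below 0 in both.

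Among the genes higher at E77, SCN4B had 78.5, 83.9 and 105 RPKM in the 8 terminal libraries of E77, against 13.2, 22.2 and 31 RPKM in the 6 of E42 (log2 fold change 2.04 ± 0.10, edgeR adjusted p = 2.56e-14). In the stem phase SCN4B had 90.9, 112 and 155 RPKM at E77, against 25.5, 37.5 and 64.7 RPKM at E42 (1.51 ± 0.10, edgeR adjusted p = 4.91e-12). The ages did not overlap in either phase. KCNJ10 had 32.5, 35.2 and 42.5 RPKM in terminal libraries of E77, against 15.8, 17.1 and 19.1 RPKM at E42 (1.03 ± 0.09, edgeR adjusted p = 6.03e-10), with a like difference of 1.04 ± 0.09 in the stem phase. KCNE1 had 2.54, 2.82 and 3.3 RPKM in terminal libraries of E77, against 0.434, 0.604 and 0.766 RPKM at E42, without overlap (2.24 ± 0.14, edgeR adjusted p = 1.6e-12). KCNJ13, an inward rectifier known from the choroid plexus, had 2.5, 4.01 and 5.86 RPKM in terminal libraries of E77, against 0.412, 0.61 and 0.781 RPKM at E42 (2.88 ± 0.21, edgeR adjusted p = 1.63e-11). The 4 choroid plexus markers summed to at most 1.91 RPKM in any library, and the span of KCNJ13 overlaps that of GIGYF2 in the RefSeq annotation.

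Among the genes higher at E42, KCNJ3 had 0.179, 1.29 and 5.45 RPKM in terminal libraries of E77, against 2.53, 7.21 and 21.2 RPKM at E42 (log2 fold change -3.33 ± 0.26, edgeR adjusted p = 2.38e-10). In the stem phase KCNJ3 had 0.0078, 0.0173 and 0.045 RPKM at E77, against 0.366, 0.417 and 1.1 RPKM at E42 (-4.62 ± 0.45, edgeR adjusted p = 1.21e-08). Those E77 stem libraries held 1 to 6 KCNJ3 reads each. The stem ranges did not overlap and the terminal ranges did. CACNA1G had 0.15, 0.376 and 0.786 RPKM in terminal libraries of E77, against 1.45, 4.62 and 9.56 RPKM at E42, without overlap (-3.62 ± 0.17, edgeR adjusted p = 5.18e-15). SCN3B was lower at E77 in both phases without overlap (-1.22 ± 0.07 in the terminal and -2.08 ± 0.09 in the stem phase), while its pore partner SCN3A differed little (-0.33 ± 0.09 in the terminal phase, and -0.03, edgeR adjusted p = 0.785, in the stem phase).

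The change from stem to terminal phase itself differed with age: it was more positive at E77 for 30 channel genes and at E42 for 29 (13.0% and 13.2% of all tested genes). The fit treats the day as a block, and without it 19 were more positive at E77. CACNA1H had 0.232, 0.69 and 1.21 RPKM in stem libraries of E77, against 5.41, 6.43 and 9.67 RPKM at E42, without overlap (-3.60 ± 0.20, edgeR adjusted p = 2.38e-12). In terminal libraries it had 3.86, 6.51 and 8.48 RPKM at E77, against 8.4, 14.7 and 22.4 RPKM at E42 (-1.15 ± 0.17, edgeR adjusted p = 9.42e-06). Those ranges overlapped only slightly. The difference between the 2 changes was 2.45 ± 0.26 (edgeR adjusted p = 7.97e-07), and 1.69 with E77 Occipital and E42 Posterior alone.

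SCN8A, KCND3 and CACNA1A were higher at E77 in the stem phase, and their changes were more positive at E42. SCN8A had 4.78, 5.6 and 6.75 RPKM in stem libraries of E77, against 1.73, 2.38 and 3.27 RPKM at E42 (1.13 ± 0.10, edgeR adjusted p = 1.24e-09). In terminal libraries it had 4.51, 5.59 and 9.34 RPKM at E77, against 4.36, 5.84 and 8.42 RPKM at E42 and did not pass (0.14, edgeR adjusted p = 0.268). The stem ranges did not overlap and the terminal ranges did. KCND3 had 33.4, 41.8 and 61.7 RPKM in stem libraries of E77, against 11, 15.6 and 25.4 RPKM at E42, without overlap (1.30 ± 0.12, edgeR adjusted p = 1e-09), and in the terminal phase it did not pass (0.20, edgeR adjusted p = 0.162). CACNA1A was higher at E77 in the stem phase (1.67 ± 0.20, edgeR adjusted p = 2.57e-07) and lower in the terminal phase (-0.56 ± 0.19, edgeR adjusted p = 0.0216). The difference of change was -0.99 ± 0.14 for SCN8A, -1.10 ± 0.16 for KCND3 and -2.23 ± 0.28 for CACNA1A.

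The glial gene KCNK1 separated by age late. It had 2.65, 6.73 and 10 RPKM in terminal libraries of E77, against 1.27, 1.5 and 1.93 RPKM at E42, without overlap (1.85 ± 0.19, edgeR adjusted p = 1.28e-08). In the stem phase KCNK1 did not pass (0.43, edgeR adjusted p = 0.0772), and the difference of change was 1.42 ± 0.28 (edgeR adjusted p = 0.000639). KCNN3 was higher at E77 in both phases (0.87 ± 0.14 in the terminal and 0.50 ± 0.14 in the stem phase), though with E77 Occipital and E42 Posterior alone the stem difference, 0.33, did not pass. KCNJ16 passed in both phases (2.26 ± 0.48 in the terminal and 1.15 ± 0.34 in the stem phase), and in neither with that pair of series alone (1.53 in the terminal and -0.02 in the stem phase).

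Between regions at E42, 36 channel genes were higher and 46 lower in Anterior than in Posterior cultures over all days (25.1% and 30.3% of all tested genes). KCNE4, a single-span subunit that damps delayed rectifiers, had 4.84, 6.17 and 14.6 RPKM in the 9 Anterior libraries, against 0.166, 0.185 and 0.651 RPKM in the 9 Posterior ones (log2 fold change 5.11 ± 0.23, edgeR adjusted p = 1.19e-15). Every Anterior library was above every Posterior one, and the 20 E77 libraries were between 0.275 and 1.53 RPKM. KCNMB1, the smooth muscle subunit of the large-conductance channel, had 1.66, 3.04 and 0.326 RPKM at days 1, 3 and 5 in Anterior cultures, and was at most 0.0072 RPKM in any Posterior library. KCNA1, a low-threshold axonal gene, had 12.8, 9.78 and 3.27 RPKM at days 1, 3 and 5 in Anterior cultures, with 0.252, 1.26 and 12.8 RPKM over all Anterior and 0.0756, 0.198 and 0.678 RPKM over all Posterior libraries (2.97 ± 0.27, edgeR adjusted p = 2.32e-09). SCN7A had 0.675, 1.35 and 5.32 RPKM in Anterior libraries, against 0.107, 0.215 and 0.426 RPKM in Posterior ones, without overlap (3.05 ± 0.32, edgeR adjusted p = 2.85e-08). All 7 mesenchymal markers were higher in Anterior cultures, and their part in these differences was not tested.

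The E42 regions also differed in CACNG5 and KCNQ3. CACNG5 had 1.07, 9.65 and 34.2 RPKM in Anterior libraries, against 0.323, 1.32 and 9.95 RPKM in Posterior ones (2.55 ± 0.16, edgeR adjusted p = 4.11e-12), and at day 17 the values were 34.2 RPKM in Anterior and 9.95 RPKM in Posterior cultures. KCNQ3 was on the other side, with 0.253, 0.693 and 1.42 RPKM in Anterior libraries against 1.11, 5.06 and 9.6 RPKM in Posterior ones (-2.35 ± 0.13, edgeR adjusted p = 1.35e-13). The ranges of both genes overlapped over all days, but not within the stem phase, where CACNG5 had 1.07 to 3.85 RPKM in Anterior and 0.323 to 0.556 RPKM in Posterior libraries and KCNQ3 had 0.253 to 0.403 RPKM in Anterior and 1.11 to 1.98 RPKM in Posterior libraries. On the neuronal list 6 genes were higher and 13 lower in Anterior cultures, beside 1 and 6 of 8 neuron markers.

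Between regions at E77, 30 channel genes were higher and 25 lower in Frontal than in Occipital cultures (16.3% and 13.8% of all tested genes). CACNA1F had 0.116, 0.785 and 1.88 RPKM in the 10 Frontal libraries, against 0, 0.029 and 0.0935 RPKM in the 10 Occipital ones (4.63 ± 0.26, edgeR adjusted p = 4.29e-13), without overlap. CACNG5 had 0.931, 15.8 and 27.5 RPKM in Frontal libraries, against 0.0639, 3.92 and 13.2 RPKM in Occipital ones (2.05 ± 0.16, edgeR adjusted p = 7.08e-10). Lower in Frontal cultures were KCNC1, with 0.263, 1.19 and 3.5 RPKM in Frontal against 1.03, 2.82 and 7.16 RPKM in Occipital libraries (-1.48 ± 0.13, edgeR adjusted p = 6.19e-10), and KCNQ3 (-1.12 ± 0.13, edgeR adjusted p = 1.56e-07). SCN4B, the most abundant channel gene, did not pass between these regions (-0.09 ± 0.08, edgeR adjusted p = 0.426). Of the 5 dividing cell markers all 5 were higher in Frontal cultures, as were 4 of the 7 mesenchymal markers, and 6 of the 8 oligodendrocyte lineage markers were lower. Their part in the channel differences was not tested.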

How the data were processed

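The authors' deposited tables hold raw read counts and RPKM values for 34619 genes in 38 libraries. STAR and featureCounts are named per the submitters' processing notes, without version or role. The genome build, the annotation and the strand setting of the counting are not given in the sources used here. Libraries were strand-specific, per the labels' protocols. The deposited RPKM values equal counts over library total and a fixed gene length, to within 4.1e-05 as a coefficient of variation, in the 13494 genes checked. Of 703 pairs of libraries none differed by less than sampling noise (chi-square per gene at least 9.51, 0 pairs under 1.5).

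Counts were tested with edgeR 4.0.16 in R 4.3.3 (filterByExpr over 12 groups of series and phase, TMM, robust quasi-likelihood F test, Benjamini-Hochberg adjustment over 20794 genes, threshold 0.05). The terminal, transition and stem phases were compared as the mean of 4 series, each series weighted equally, and within each series. Age and region fits also held the day in vitro as a block: the labels give it for every library, and same-day libraries deviated together with r over 0.1 in 49 of 55 pairs (-0.22 to 0.8, median 0.34). An SE is the log2 fold change over the root of F. Group means in the text are ± SD. RPKM values served for levels only.

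The channel genes, the gene lists and the tests were chosen with earlier results of these data known. Named genes were those of the largest calls per comparison with at least 1 CPM on the higher side, every gene of the neuronal and glial lists, and the most abundant gene of each class. SCN9A, CACNB3, KCNK3, KCNIP1, HCN2 and HCN4 were added after their values were seen. All 135 symbols were found in a RefSeq table of the macaque assembly T2T-MMU8v2.0, where 67 overlap another gene, 27 of them one with a symbol. The counts of KCNJ1, KCNJ9, KCNJ10, KCNJ13, CACNA1C, CACNA1H, CACNA2D4, CACNG7, CACNG8, KCND2, KCNN1, KCNT1, HCN2 and HCN3 are uncertain to that extent. No sequence was used. Some genes are counted in classes and lists but not reported by name here. Alternatives were other normalizations, filters, pseudocounts, DESeq2 1.42.0, limma 3.58.1, days or series left out, and each library left out.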

Additional observations from a re-analysis of the deposited data

Results flagged for a closer look

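Groups of 4 libraries were examined for a library far from the others, in 93 combinations of gene and group, of which chance gives about 1 in 20. Only the terminal groups at E77 hold 4 libraries, so the 4 found could lie nowhere else. In E77 Frontal cultures CACNG5 was 27.54 RPKM at day 20, with the other 3 days at 24.47 to 24.98, and KCNQ3 was 1.426 RPKM at day 20, with the others at 1.1 to 1.153. In E77 Occipital cultures CACNG4 was 16.94 RPKM at day 11, with the others at 21.96 to 22.8, and KCND3 was 24.22 RPKM at day 11, with the others at 20.09 to 20.38.

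The terminal against stem change differed between E77 and E42, by a test of the difference, for 33 of the 61 tested named genes. Of all tested genes 13.0% had a more positive change at E77 and 13.2% at E42, but many named genes were chosen for the size of their age or phase difference, so nothing is read from the higher share. The log2 difference was more positive at E77 for 18 genes: KCNS3 3.93, CACNA1H 2.45, KCNE4 2.39, CACNA1C 1.48, KCNK1 1.42, CACNG2 1.29, KCNK2 1.22, CACNA1B 1.05, SCN3B 0.87, KCNH1 0.84, KCNJ8 0.70, KCNH5 0.68, KCNIP3 0.58, SCN4B 0.53, KCNMB4 0.51, CACNG4 0.51, HCN3 0.29 and CACNG7 0.28. It was more positive at E42 for 15 genes: CACNA1A -2.23, CACNA1I -1.94, CACNA1D -1.84, KCNJ1 -1.68, KCNT1 -1.49, KCNJ12 -1.15, KCNQ3 -1.13, KCND3 -1.10, SCN8A -0.99, KCNMA1 -0.96, CACNA2D4 -0.91, CACNG8 -0.89, KCNA2 -0.76, KCNG1 -0.66 and KCNJ9 -0.53. With E77 Occipital and E42 Posterior alone, CACNA1C was 0.09 and no longer passed, and KCNMB4 turned to -0.08. With limma on log2(RPKM + 1) the difference turned direction for CACNG2 (-0.57), KCNH5 (-0.53), CACNA1C (-0.17) and SCN3B (-0.03). With E77 Frontal and E42 Anterior alone KCNJ12 turned to 0.28. The KCNS3 value rests on 0 to 6 reads per stem library at E77.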

How the results depend on the processing

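Precision is limited by 1 library per series and day, and low genes rest on few reads. Counts of channel genes that moved by over 1.5 times follow, for which the cause was not tested. With limma on log2(RPKM + 1) or log2(RPKM + 0.1) and a filter, which test fewer genes, falls numbered 13 in E77 Frontal, 7 in E77 Occipital and 3 in E42 Posterior, 5 and 4 in the transition against the stem phase, and genes higher in Anterior than Posterior 20. With limma on 1 value per day, which leaves few samples, falls in the transition numbered 5, and rises and falls in the terminal phase against the transition 29 and 8. Without the block of day in vitro, which pairs the series, genes whose change was more positive at E77 numbered 19, and 37 of 200 calls on named genes were lost. Genes whose change was more positive at E42 numbered 19 with E77 Occipital and E42 Posterior alone and 49 with limma on log2(RPKM + 1) without a filter. Without E42 Anterior 1 neuronal channel gene fell in the terminal against the stem phase. Reversed values were, in log2, KCNA2 -0.05 (terminal against stem, without E42 Anterior), and, with E77 Occipital and E42 Posterior alone, KCND2 -0.033, KCNG1 -0.082, KCNA1 0.22, KCNE4 0.31, KCNJ12 0.29 and KCNJ16 -0.023 (age, stem) and KCNMB4 -0.082 (difference of change). With E77 Frontal and E42 Anterior alone KCNN2 was 0.29 (age, terminal) and KCNJ12 0.28 (difference of change). For the difference of change, limma gave KCNH5 -0.53 with a pseudocount of 1 and -0.083 with 0.1, CACNG2 -0.57 and -0.10, and, with 1, CACNA1C -0.17 and SCN3B -0.026. Leaving out 1 library at a time, rises and falls of channel genes in the terminal against the stem phase ranged over 65 to 70 and 17 to 20 for the mean, 45 to 52 and 15 to 22 in E77 Frontal, 49 to 56 and 10 to 14 in E77 Occipital, 42 to 52 and 13 to 16 in E42 Anterior, and 58 to 67 and 5 to 9 in E42 Posterior. They ranged over 48 to 56 and 8 to 11 for the transition against the stem phase and 51 to 56 and 16 to 20 for the terminal phase against it. For E77 against E42 they ranged over 21 to 26 and 44 to 52 in the stem phase, 20 to 23 and 51 to 58 in the terminal phase, and 28 to 33 and 23 to 30 for the difference of change. For the regions they ranged over 34 to 38 and 40 to 48 at E42, and 29 to 33 and 23 to 27 at E77. Over the same settings 17 to 19 neuronal genes rose and 2 to 3 fell, and 4 glial genes rose and 3 fell. Across the 13 other alternatives, 163 of 2296 values of named genes lost their call and 20 reversed.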
